A study of Mus musculus with 8 samples.

Results

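A set of genes tied to the passage of mitochondria between cells were followed in the transcriptomes of murine megakaryocytes (MKs) cultured alone or together with bone marrow mesenchymal stromal cells (MSCs). They were chosen by name, for roles known from other work and not for their values here. They are Gja1 (connexin Cx43), Tnfaip2 (M-Sec), Myo10, Rhot1 and Rhot2 (Miro1 and Miro2), Trak1, Trak2, Kif5b, Myo19 and Cd38. All 10 were among the 13387 genes of the count table, and all 10 passed the filter on low counts that left 11722 genes for testing. The filter asks for enough counts in as many libraries as a group holds. A gene with few counts in either group can thus pass through the other.

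Both groups came from C57BL/6 bone marrow, and cultures lasted 18 hours. The control group was wild-type primary MKs cultured alone (4 libraries), and the coculture group was the same kind of MKs cultured with wild-type CD45-Ter119-CD31-CD51+CD140a+ MSCs (4 libraries). According to the methods, the MKs were enriched from flushed marrow with CD41 beads and were kept in medium with thrombopoietin, cells in suspension were taken off the adherent MSCs by hand, and several wells were pooled for each library. The bead step enriches MKs but does not make them pure. By the labels, the RNA is from MKs freed of platelets, whereas the methods speak of platelets made in the cultures. The study counts 4 mice per group, but the labels do not tie a library to a mouse, so p-values measure the spread between these libraries.

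Mitochondria can pass from cell to cell through contacts built by gap junctions and by tunneling nanotubes, which are thin actin-based bridges between cells. Within a cell, mitochondria move along microtubules when a Miro GTPase in their outer membrane binds a TRAK adaptor, which in turn binds a kinesin or dynein motor, and myosins move or anchor them on actin. In bone marrow, stromal cells are rich in Cx43, and CD38 on malignant blood cells has been linked to the uptake of mitochondria from the stroma.

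Of the 10 genes, 3 were higher in coculture and none was lower. Gja1 was 32.9-fold higher, Myo19 was 6.31-fold higher and Myo10 was 5.29-fold higher. Myo19, with 4, 7, 13 and 2 counts in MKs alone, passed the filter on low counts through the cocultures only. The other 7 genes did not pass the test, and they include both Miro GTPases, both TRAK adaptors and the kinesin Kif5b. A call needed a fold change of 2 or more, an adjusted p (Benjamini-Hochberg over all 11722 genes, edgeR quasi-likelihood test) no higher than 0.05, and a group mean of 1 or more CPM, which are counts scaled to a common library size with TMM factors. Across all genes tested, 13.2% were called higher and 7.31% were called lower. Every coculture was above every library of MKs alone for 4 of the 10 genes (Gja1, Trak1, Myo10 and Myo19) and below for 1 (Cd38), and such a lack of overlap was found for 19.3% of all genes upward and 21.1% downward.

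Total counts ran from 4939874 to 9272984 in MKs cultured alone and from 5193949 to 12523616 in cocultures. Coculture replicate 3 stood apart from the other libraries. It had the highest total, yet only 10735 genes with at least 1 count, against 13104 to 13193 in the other cocultures. Calls and directions that changed when it was left out are given both ways. Without it, 20.6% of 12267 genes were called higher and 15.4% lower. The 15 MK marker genes summed to between 1911 and 2251 CPM in MKs alone and between 1761 and 2361 CPM in cocultures, and none of them was called. Without coculture 3, Selp (P-selectin) was called higher (2.34-fold), and the von Willebrand factor receptor subunit Gp1ba and the collagen receptor Gp6 were called lower (log2 fold changes of -1.16 and -1.20). Itga2b, which encodes the CD41 of the bead step, held 160.2 to 279.3 CPM alone and 140.8 to 261.6 CPM in coculture. The platelet chemokine gene Pf4, the highest of the MK markers, averaged 841.2 ± 209.8 CPM alone and 1070 ± 361.8 CPM in coculture (SD, n = 4 each).

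Markers of other cells moved with the groups. Of the 13 MSC markers, 10 were in the table, 7 were tested and 5 were called higher, and their sum was 5.43 to 13.0 CPM alone and 1117 to 3746 CPM in coculture, with coculture replicate 3 the lowest. Of these 10, 1 was at 0 in every library of MKs alone and 4 were at 0 in coculture 3. Of the macrophage markers, 9 of the 10 tested were higher, and the sum was 175.7 to 238.6 CPM alone and 1151 to 1565 CPM in coculture. All 10 neutrophil markers were lower, with sums of 84310 to 86080 CPM alone and 4290 to 10190 CPM in coculture. B cell markers summed to 885.7 to 945.8 CPM alone and 91.1 to 236.0 CPM in coculture (4 of 9 called lower), and T and NK cell markers to 128.9 to 219.6 CPM alone and 1.05 to 29.8 CPM in coculture (3 of 6 called lower). Erythroid markers summed to 38.8 to 62.8 CPM alone and 19.6, 22.7, 93.8 and 21.5 CPM in cocultures 1 to 4 (0 of 5 called), and endothelial markers to 63.9 to 71.6 CPM alone and 13.8 to 33.6 CPM in coculture (1 of 4 called lower). The highest markers of these lists were Csf1r for macrophages (log2 fold change 1.33) and Tek for endothelial cells (-1.68). Hbb-bs, the highest erythroid marker by its mean over all libraries and a globin gene with a near-identical copy in the genome, held 53.6 CPM in coculture 3 and 1.04 to 3.89 CPM in the other cocultures, and its log2 fold change turned from 0.61 (not called) to -2.0 (called lower) without coculture 3. Without that library, the calls were 9 of 9 higher for MSC and 10 of 10 for macrophage markers, and lower for 10 of 10 neutrophil, 6 of 9 B cell, 6 of 7 T and NK cell, 4 of 6 erythroid and 2 of 4 endothelial markers. In bulk libraries, a change in the number of cells of a type and a change in RNA per cell cannot be told apart.

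**Figure D1:**
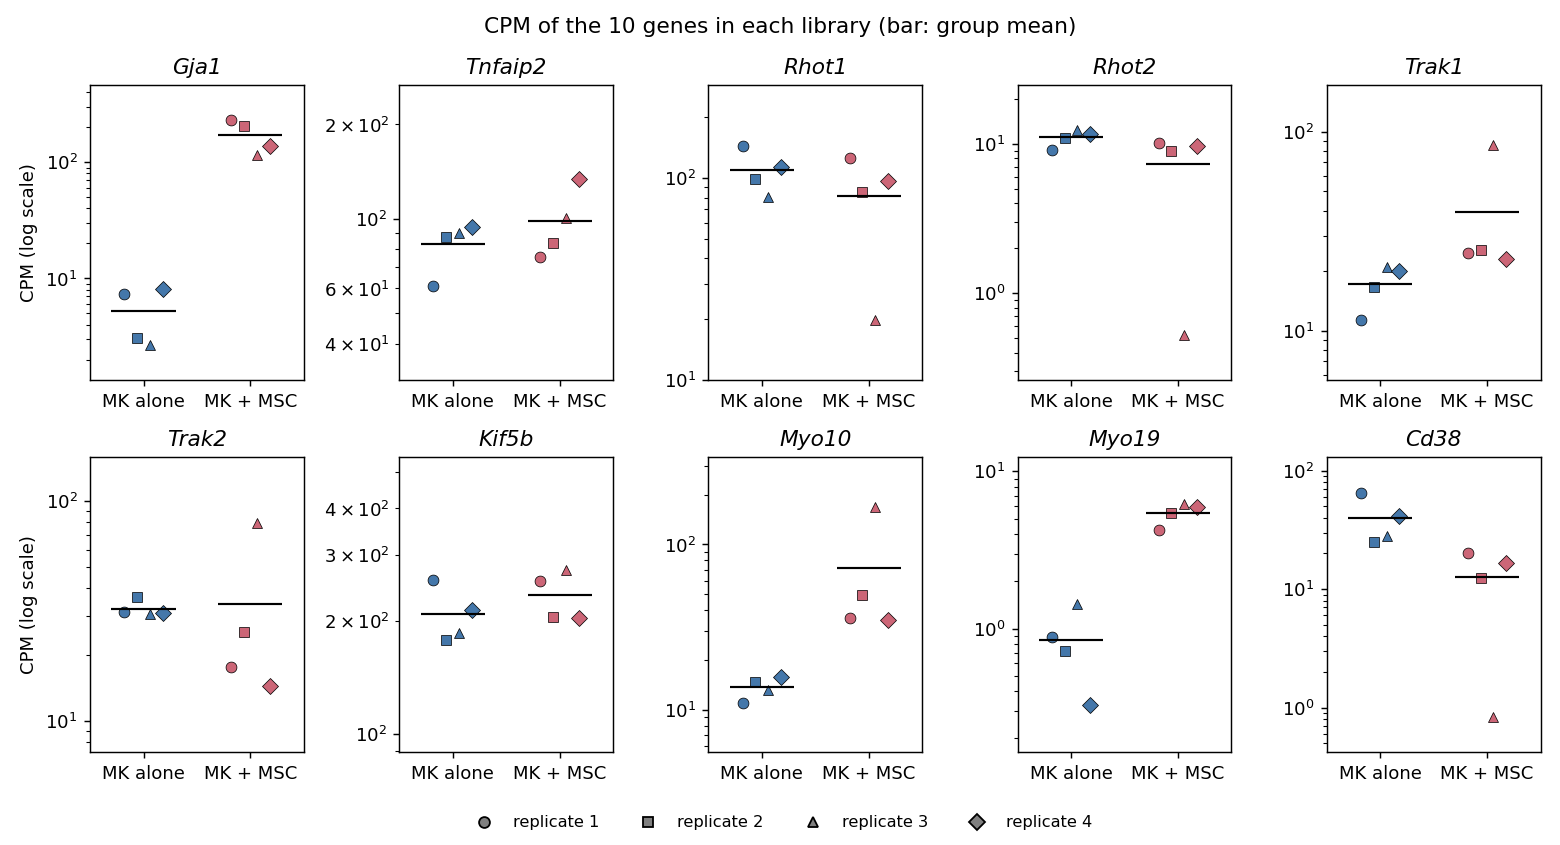
CPM of each of the 10 genes on a log axis, 1 point per library, for MKs cultured alone and for cocultures, each panel with its own range. Bars stand at the group means and symbols for the replicate number, with replicate 3 as a triangle. Gja1, Trak1, Myo10 and Myo19 were higher in every coculture than in any library of MKs alone, and Cd38 was lower in every coculture.

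Gja1 encodes Cx43, the connexin whose hexamers form the most widespread gap junction channel. The gene spans chr10:56377330-56402513 on the forward strand (GRCm38, as are all positions here), and its exons cover 10257 bases. Replicates 1 to 4 of MKs cultured alone held 7.28, 3.09, 2.66 and 8.13 CPM of Gja1, from 33, 30, 24 and 50 counts. The cocultures held 231.0, 205.3, 115.9 and 136.5 CPM, from 2437, 1576, 1108 and 787 counts. The lowest coculture was far above the highest library of MKs alone, and the groups did not overlap. The mean rose from 5.29 ± 2.82 to 172.2 ± 54.7 CPM (SD, n = 4 each), a log2 fold change of 5.04 (SE 0.48, 95% interval 3.95 to 6.14, edgeR adjusted p = 0.000153). Without coculture replicate 3, the log2 fold change was 5.23.

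Gja1 stood beside the MSC markers in each library. In MKs cultured alone, both Gja1 and the summed MSC markers were highest in replicate 4, then in 1, 2 and 3. The summed markers were 11.7, 9.17, 5.43 and 13.0 CPM in those 4 libraries and 2859, 3746, 1117 and 2595 CPM in the cocultures, where the orders differed: Gja1 was highest in replicate 1 and the markers in replicate 2, and both were lowest in replicate 3. As a percent of the MSC marker sum, Gja1 was 33.7% to 62.5% in MKs alone and 5.26% to 10.4% in coculture. In MKs alone, that sum came mainly from the collagen gene Col1a2 (4.41 to 8.46 CPM) and from Postn (0.111 to 3.42 CPM). The percent and the order of the sums there rest on these low values. Sparc, a matrix glycoprotein gene and the highest MSC marker, held at most 1.10 CPM alone and 547.7 to 1419 CPM in coculture (log2 fold change 10.9). Pdgfra, which encodes the CD140a of the MSC sort, held at most 0.515 CPM alone, 24.8 to 34.8 CPM in cocultures 1, 2 and 4, and 0.209 CPM in coculture 3. The part of MSC RNA in the Gja1 difference was not tested.

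**Figure D2:**
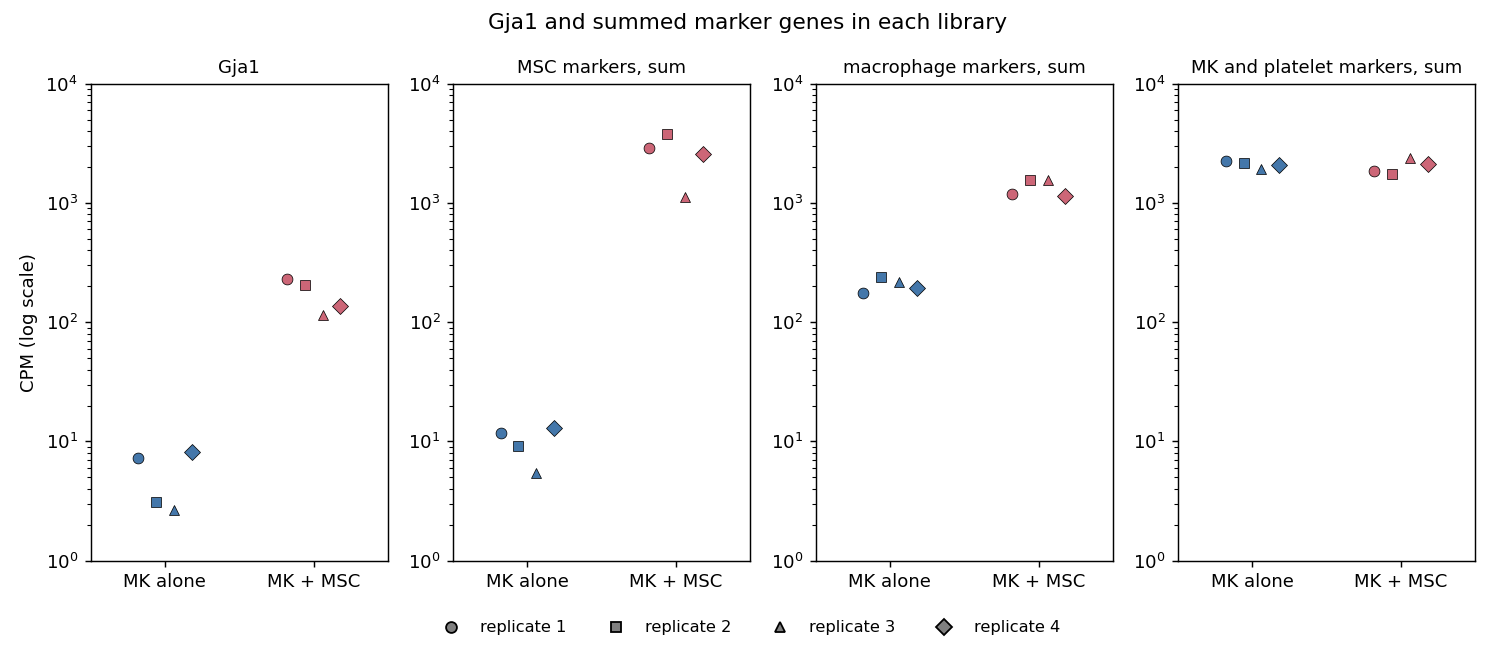
CPM of Gja1 beside the summed CPM of the MSC, macrophage and MK markers in each of the 8 libraries, on a log axis. Gja1 and the MSC sum were higher in all 4 cocultures, and the MK sum had overlapping ranges in the groups.

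The 5 genes whose pattern over the 8 libraries was most like that of Gja1, among 11721 genes compared, were Pawr, Nsg1, Ccn4, Emp1 and Gpc4. Likeness was the root mean square difference of log2(CPM + 1) after each gene was centred on its own mean, and it ran from 0.255 for Pawr to 0.413 for Gpc4. Pawr, a proapoptotic regulator gene, held 0.309 to 1.14 CPM alone and 39.1 to 59.4 CPM in coculture. Emp1, an epithelial membrane protein gene, held 4.88 to 9.27 CPM alone and 262.8 to 405.8 CPM in coculture. Nsg1 held at most 0.441 CPM alone and 25.9 to 62.6 CPM in coculture. Ccn4, a matricellular protein gene, and Gpc4, a glypican gene, held at most 4.23 and 2.28 CPM alone and at least 56.7 and 64.3 CPM in coculture. Of the other genes followed here, Myo19 came nearest to the Gja1 pattern at rank 809 (1.67), then Myo10 at rank 890 (1.72), and Cd38 was farthest at rank 10769. Values were not scaled, so these ranks mostly follow the log2 fold changes of the genes. Among cocultures, replicate 3 was the highest for Myo10 and the lowest for Gja1.

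Few other genes of the connexin family could be tested. Of 24 connexins, pannexins and junction scaffolds listed, 8 were in the table and 3 were tested, and none of the 3 was called. Without coculture 3, 3 of 5 were higher, against 20.6% of all genes in that fit. Panx1, a pannexin channel gene and the highest of them, averaged 32.4 ± 2.74 CPM alone and 43.4 ± 12.5 CPM in coculture (SD, n = 4 each, log2 fold change 0.42, adjusted p = 0.332). Tjp1 encodes ZO-1, a scaffold that binds Cx43. It held 1.10 to 3.91 CPM alone and 23.4 to 30.3 CPM in cocultures 1, 2 and 4, but no count in coculture 3 (log2 fold change 2.82, adjusted p = 0.144, or 3.18 and adjusted p = 2.87e-07 without that library). Gjc1, the gene of the connexin Cx45, was left out by the filter and is named after its values were seen. It had no count in any library of MKs alone and 66, 107, 0 and 46 counts in cocultures 1 to 4, and was at least 64.0-fold higher over the group against a floor of 3 counts.

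The start regions of the 3 genes called higher are shown because these genes carried the change. They are the 250 bases before the RefSeq start (GRCm38.p6), read 5′ to 3′ on the gene's strand. Myo10 has a pair of RefSeq starts, given as 1 and 2. The windows are chr10:56377050-56377299 for Gja1, chr15:25622300-25622549 and chr15:25752956-25753205 for Myo10, and chr11:84879920-84880169 for Myo19, all on the forward strand. Capitals mark matches, on either strand, to 7 sets of letters. These are the AP-1 letters TGANTCA, the Sp1 letters GGGCGG, the TATA box letters TATAAA, the TEAD letters CATTCC, the CCAAT box letters CCAAT, the E-box letters CACGTG and the CRE letters TGACGTCA.
Gja1: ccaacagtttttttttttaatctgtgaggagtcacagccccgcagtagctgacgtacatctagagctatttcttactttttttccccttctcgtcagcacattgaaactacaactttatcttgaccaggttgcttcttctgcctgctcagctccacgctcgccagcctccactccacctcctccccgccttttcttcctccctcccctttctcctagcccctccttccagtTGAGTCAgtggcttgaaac
Myo10 start 1: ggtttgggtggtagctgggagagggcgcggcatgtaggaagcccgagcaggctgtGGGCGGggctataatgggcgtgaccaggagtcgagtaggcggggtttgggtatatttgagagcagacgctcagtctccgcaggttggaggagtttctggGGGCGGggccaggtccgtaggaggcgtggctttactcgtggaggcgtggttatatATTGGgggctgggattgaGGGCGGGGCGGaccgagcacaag
Myo10 start 2: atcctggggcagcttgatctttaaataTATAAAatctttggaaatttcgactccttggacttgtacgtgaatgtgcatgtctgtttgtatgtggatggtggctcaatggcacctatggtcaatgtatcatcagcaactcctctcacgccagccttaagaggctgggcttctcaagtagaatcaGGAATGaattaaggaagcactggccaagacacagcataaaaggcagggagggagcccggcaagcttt
Myo19: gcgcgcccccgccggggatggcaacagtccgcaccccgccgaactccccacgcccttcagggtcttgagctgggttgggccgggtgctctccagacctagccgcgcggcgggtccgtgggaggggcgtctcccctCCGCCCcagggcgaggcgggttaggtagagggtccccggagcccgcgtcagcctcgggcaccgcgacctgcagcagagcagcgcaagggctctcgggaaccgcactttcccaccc
The Gja1 window held TGAGTCA 19 bases before the start, letters that 6.75% of 32851 RefSeq windows of this length contain, and it held none of the other 6. Start 1 of Myo10 held GGGCGG 4 times, and Myo19 held it once on the other strand, whereas 32.7% of all windows held it. Start 1 of Myo10 also held the CCAAT letters on the other strand (33.8% of windows). Start 2 of Myo10 held TATAAA (12.4% of windows) and the TEAD letters on the other strand (12.6%). The GC content was 50.0% for Gja1, 62.8% and 46.0% for Myo10 and 74.0% for Myo19. Over 13 windows of 9 of the genes, 8 held GGGCGG and 1, that of Gja1, held TGANTCA. Neighboring GGGCGG matches can overlap by shared letters, and a match is a description of the letters only.

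Tnfaip2 and Myo10 act in the making of cell protrusions. Tnfaip2 (chr12:111442469-111455018, forward strand) encodes M-Sec, which starts tunneling nanotubes together with the exocyst. It held 61.1, 87.4, 89.9 and 94.2 CPM in replicates 1 to 4 of MKs alone and 75.5, 83.8, 101.0 and 133.7 CPM in cocultures 1 to 4. The groups overlapped, with the highest value in coculture 4, and the difference was within the spread between libraries (log2 fold change 0.24, SE 0.25, 95% interval -0.32 to 0.80, adjusted p = 0.524).

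Myo10 (chr15:25622525-25813673, forward strand) encodes the myosin that carries cargo to the tips of filopodia. It held 11.0, 14.7, 13.1 and 15.8 CPM alone, and 36.1, 49.4, 169.0 and 34.7 CPM in coculture. Every coculture was above every library of MKs alone, and coculture replicate 3 was the highest. The log2 fold change was 2.40 (SE 0.56, 95% interval 1.14 to 3.66, edgeR adjusted p = 0.0151). Without coculture replicate 3 it was 1.53 (SE 0.22, 2.88-fold, edgeR adjusted p = 1.8e-05), so the call held and the fold was smaller. The call was lost when replicate 1 or replicate 3 of MKs alone was left out, with adjusted p of 0.0563 and 0.053, and also with the replicate number as a block (0.0565) and under glmTreat, a test against the fold cutoff (0.0668).

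Of 26 genes of nanotubes, the exocyst and the actin machinery of protrusions, 25 were tested, 1 was higher and 1 was lower. These are 4% each, against 13.2% higher and 7.31% lower of all genes. The median log2 fold change of the list was -0.19, against 0.03 over all genes. Fscn1, which encodes the actin bundler fascin of filopodia, held 0, 0, 0.554 and 0.976 CPM in MKs alone and 97.3, 129.9, 249.7 and 102.9 CPM in coculture. It was near zero in every library of MKs alone and the groups were far apart (fitted log2 fold change 8.51, SE 0.92, edgeR adjusted p = 0.000278). Fscn1 passed the filter on low counts through the cocultures only. Actr3, a subunit gene of the actin-branching complex Arp2/3, fell from 2072 ± 369.7 to 932.3 ± 75.4 CPM (SD, n = 4 each, log2 fold change -1.15, SE 0.19, edgeR adjusted p = 0.00269). Cdc42, a GTPase gene of filopodia and the highest uncalled gene of this list, averaged 1839 ± 281.0 CPM alone and 1454 ± 309.4 CPM in coculture (log2 fold change -0.34, adjusted p = 0.287). Without coculture replicate 3, 3 of 26 were higher and 4 were lower (11.5% and 15.4%, against 20.6% and 15.4% of all genes in that fit).

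Rhot1 and Rhot2 encode Miro1 and Miro2, the calcium-binding GTPases that tie mitochondria to their adaptors. Rhot1 (chr11:80209019-80267907, forward strand) held 145.0, 99.5, 80.3 and 113.7 CPM alone, and 125.7, 85.7, 19.9 and 96.5 CPM in coculture. Cocultures 1, 2 and 4 lay within the range of MKs alone, and coculture 3 lay below every other library. Coculture differed from MKs alone by -0.42 on the log2 scale (SE 0.48, 95% interval -1.5 to 0.67, adjusted p = 0.574), and it was -0.11 (SE 0.21) without coculture 3.

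Rhot2 (chr17:25838457-25844851, reverse strand) held 9.05, 11.0, 12.4 and 11.7 CPM in MKs alone, and 10.1, 8.99, 0.523 and 9.71 CPM in coculture. Coculture 3 had only 5 counts of it, and the other 3 cocultures were close to MKs alone. The log2 fold change of -0.59 had a wide interval (-2.32 to 1.13, adjusted p = 0.618), and it was -0.23 without coculture 3. The exons of Rhot2 share 1307 bases on the same strand with the model Gm20683 and 81 bases with Wdr90, so its counts are uncertain. Rhot1 made up 94.1%, 90.0%, 86.6% and 90.7% of the summed Rhot1 and Rhot2 counts in MKs alone and 92.5%, 90.5%, 97.4% and 90.8% in coculture (2-sided exact permutation test, p = 0.343). Most counts of the pair came from Rhot1 in every library, and the shares overlapped between the groups.

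Trak1 and Trak2 encode the adaptors that join Miro to kinesin and dynein. Trak1 (chr9:121297502-121474918, forward strand) held 11.3, 16.5, 21.0 and 19.9 CPM alone, and 24.5, 25.3, 85.7 and 22.9 CPM in coculture. Every coculture was above every library of MKs alone, but cocultures 1, 2 and 4 exceeded the highest of these by little. The log2 fold change of 1.21 (SE 0.51, 95% interval 0.05 to 2.37) did not pass the test (edgeR adjusted p = 0.124), and without coculture 3 it was 0.47 (adjusted p = 0.103).

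Trak2 (chr1:58900449-58973430, reverse strand) held 31.1, 36.6, 30.5 and 31.1 CPM in MKs alone, and 17.6, 25.4, 79.1 and 14.4 CPM in coculture. Coculture 3 was the highest of all libraries, and the other cocultures were the lowest. Its log2 fold change was 0.08 with all libraries (SE 0.54, 95% interval -1.13 to 1.29, adjusted p = 0.933). Without coculture 3 its sign turned, to -0.77 (SE 0.23, edgeR adjusted p = 0.00837), below the fold cutoff.

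The balance of the TRAK pair was taken within each library, a share that was chosen after the values were seen. Trak1 made up 26.6%, 31.1%, 40.7% and 39.0% of the summed Trak1 and Trak2 counts in MKs alone and 58.1%, 49.9%, 52.0% and 61.4% in coculture. The shares did not overlap, and coculture 3, which was highest for both genes, had a share within the range of the other cocultures. The mean was 34.3% ± 6.67 alone and 55.3% ± 5.34 in coculture (SD, n = 4 each), a difference of 21 percentage points (2-sided exact permutation test, p = 0.0286, or 0.0571 when adjusted over the TRAK and Miro pairs). The unadjusted p is the smallest that 4 against 4 libraries allow. The adjustment does not cover the choice made after the values were seen. Without coculture 3 the coculture mean was 56.5%, with an exact permutation p of 0.0571, the smallest that 3 against 4 libraries allow. The exons of all annotated transcripts together cover 12568 bases for Trak1 and 7088 for Trak2. Divided by these lengths, the mean share of Trak1 was 22.9% alone and 41.3% in coculture. Trak2 was then the larger of the pair, while by counts Trak1 was the larger on average in coculture. Such a length can exceed that of the transcripts present, so the order in coculture depends on it.

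**Figure D3:**
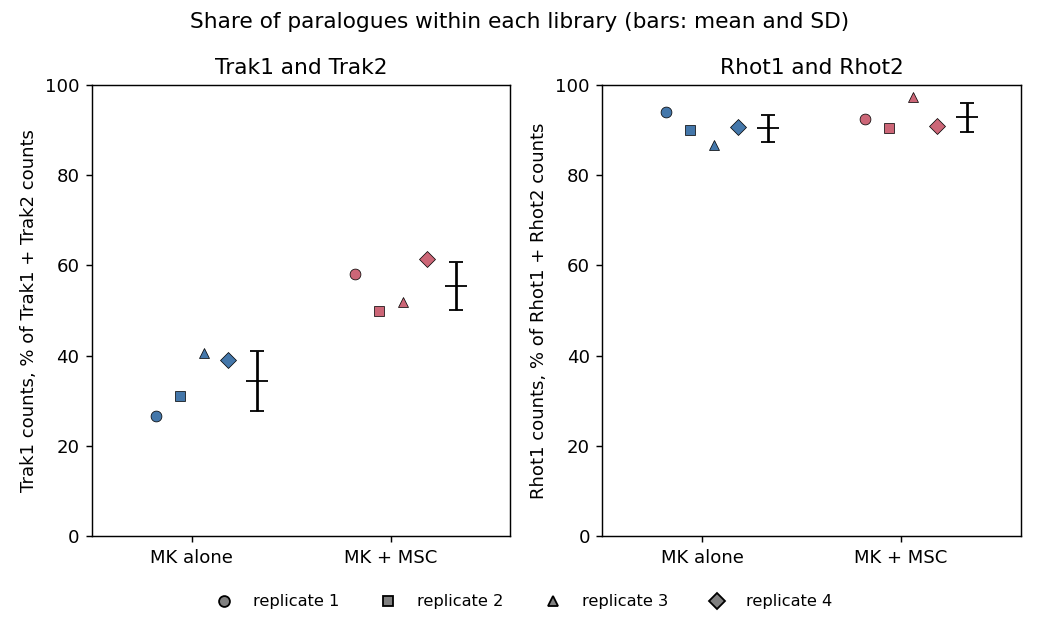
Percent of the summed counts of each pair of paralogues that came from Trak1 (left) and from Rhot1 (right) in each library, with bars for the mean and SD of each group. The Trak1 shares of the cocultures (49.9% to 61.4%) lay above those of MKs alone (26.6% to 40.7%), and the Rhot1 shares overlapped.

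Kif5b and Myo19 are motors for mitochondria on microtubules and on actin. Kif5b (chr18:6201002-6242174, reverse strand) encodes the heavy chain of kinesin-1. It held 257.3, 178.2, 186.4 and 214.3 CPM in MKs alone, and 255.2, 205.0, 274.5 and 204.0 CPM in coculture. The groups overlapped, and the log2 fold change was 0.17 (SE 0.20, 95% interval -0.27 to 0.61, adjusted p = 0.584).

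Myo19 (chr11:84880148-84911226, forward strand) encodes a myosin of the mitochondrial outer membrane. It held 0.883, 0.722, 1.44 and 0.325 CPM alone, from only 4, 7, 13 and 2 counts, and 4.27, 5.47, 6.17 and 5.90 CPM in coculture, from 45, 42, 59 and 34 counts. The groups did not overlap, and coculture 3 was close to the other cocultures for this gene. Its log2 fold change was 2.66 (SE 0.62, 95% interval 1.26 to 4.05, edgeR adjusted p = 0.0149), and 2.54 without coculture 3 (edgeR adjusted p = 0.00031). With no filter on low counts it was 2.64 (edgeR adjusted p = 0.0235). The call was lost when replicate 1, 2 or 4 of MKs alone was left out, with adjusted p between 0.0585 and 0.0684, and also with the replicate block (0.0699) and under glmTreat (0.0564). Its exons share 277 bases with Znhit3 and 106 bases with Pigw on the opposite strand, and the use of strand in counting is not given in the sources used here. Znhit3 held 15.8 to 24.6 CPM alone and 27.5, 28.8, 2.30 and 21.2 CPM in coculture (log2 fold change -0.07). Pigw held 3.66 to 11.0 CPM alone and 5.31, 5.08, 0.105 and 5.2 CPM in coculture (log2 fold change -0.90, adjusted p = 0.525). The part of reads from these genes in the Myo19 counts was not tested.

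Of 30 other genes of mitochondrial motors, adaptors and anchors, 23 were tested, 4 were higher (17.4%, near the 13.2% of all genes) and none was lower. Without coculture 3, 5 were higher (21.7%, against 20.6% of all genes) and 1 was lower (4.35%, against 15.4%). Their median log2 fold change was 0.71, also with Fez1 at its bound, against 0.03 over all genes. Fez1, which encodes a kinesin adaptor, had no count in any library of MKs alone and 7.11, 7.42, 20.2 and 12.3 CPM in coculture. It was at least 116-fold higher over the group against a floor of 3 counts, and it passed the filter through the cocultures only. Klc1, the gene of a kinesin light chain, held 11.4 to 16.6 CPM alone and 38.6, 45.2, 135.7 and 42.5 CPM in coculture (log2 fold change 2.20, SE 0.47, edgeR adjusted p = 0.00993, 4.60-fold, or 2.92-fold without coculture 3). Both genes were highest in coculture 3, and neither overlapped between the groups.

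The other called genes of the list were Dync1h1 and Dync1li2, which encode dynein chains, while Dync1i2, Dync1li1, Dctn1 and Dctn2 of dynein and dynactin were not called (adjusted p of 0.158, 0.164, 0.185 and 0.0575). Dync1h1, the dynein heavy chain, averaged 27.5 ± 6.51 CPM alone and 61.8 ± 19.0 CPM in coculture (SD, n = 4 each, log2 fold change 1.16, SE 0.32, edgeR adjusted p = 0.0283). Dync1li2, a light intermediate chain, held 27.4 to 39.6 CPM alone and 65.3, 67.2, 172.7 and 58.5 CPM in coculture (log2 fold change 1.46, SE 0.39, edgeR adjusted p = 0.0261). Without coculture 3 its log2 fold change was 0.92, below the fold cutoff. Vdac1, the pore of the mitochondrial outer membrane and the highest uncalled gene of the list, averaged 116.5 ± 10.1 CPM alone and 190.7 ± 22.5 CPM in coculture (log2 fold change 0.71, edgeR adjusted p = 0.0171, below the fold cutoff).

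Of 22 unconventional myosins beside Myo10 and Myo19, 11 were tested, 2 were higher (18.2%) and 1 was lower (9.09%). Among all genes, 13.2% were higher and 7.31% lower. The median log2 fold change of the list was 0.33. Without coculture 3, 4 of 12 were higher and 1 was lower (33.3% and 8.33%, against 20.6% and 15.4% of all genes). Myo1c, a membrane-binding myosin, held 41.1 to 55.8 CPM alone and 154.4, 196.0, 195.8 and 227.9 CPM in coculture (log2 fold change 1.95, SE 0.20, edgeR adjusted p = 0.000204). Its groups were far apart, and coculture 3 lay among the other cocultures. Myo1e averaged 20.9 ± 2.34 CPM alone and 59.0 ± 31.4 CPM in coculture (log2 fold change 1.50, SE 0.38, edgeR adjusted p = 0.0211). Myo1f, a myosin of leukocytes, fell from 264.1 ± 61.5 to 117.2 ± 31.0 CPM (log2 fold change -1.17, SE 0.26, edgeR adjusted p = 0.0114). Beside it, the neutrophil marker S100a8, the highest of its list, changed by -3.46 on the log2 scale, and the part of neutrophil RNA in the Myo1f difference was not tested. Myo5a, a vesicle-carrying myosin and the highest uncalled gene of the list, averaged 61.0 ± 19.4 CPM alone and 100.7 ± 16.3 CPM in coculture (log2 fold change 0.72, adjusted p = 0.0853).

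Cd38 (chr5:43868553-43912375, forward strand) encodes the ectoenzyme that turns NAD into cyclic ADP-ribose, a calcium messenger. It held 65.1, 24.9, 27.9 and 41.3 CPM in MKs alone, and 20.2, 12.5, 0.837 and 16.7 CPM in coculture. Every coculture was below every library of MKs alone, and coculture 3 was the lowest. The log2 fold change of -1.66 (SE 0.78, 95% interval -3.42 to 0.09) did not pass the test with all libraries (edgeR adjusted p = 0.158). Without coculture 3 it was -1.28 (SE 0.31) and passed (edgeR adjusted p = 0.00219), so Cd38 was called lower in the 3 cocultures that remained.

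Cd38 is also expressed by B cells and other leukocytes. In coculture, the marker sums of B cells and of T and NK cells were lower, with 4 of 9 and 3 of 6 markers called. All 10 neutrophil markers were called lower as well. Macrophage markers went the other way, with 9 of 10 called higher. Ms4a1 (CD20), the highest B cell marker, held 297.4 to 475.6 CPM alone and 88.3, 56.7, 4.60 and 65.7 CPM in cocultures 1 to 4. Nkg7, the highest T and NK cell marker, held 109.5 to 192.3 CPM alone and 23.6, 24.2, 0.523 and 18.0 CPM in coculture. Among cocultures, Cd38 and Ms4a1 were highest in replicate 1 and Nkg7 in replicate 2. Each was lowest in coculture 3, but so were 4 of the 10 genes followed here. That library had 10735 genes with at least 1 count, against 13104 to 13193 in the other cocultures. Among MKs alone, Cd38 and Ms4a1 were highest in replicate 1, whereas Nkg7 was lowest there. The part of these cells in the Cd38 difference was not tested.

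Of 14 other genes of NAD and cyclic ADP-ribose metabolism, 10 were tested and none was called (median log2 fold change -0.60). Bst1, the paralogue of Cd38 that also makes cyclic ADP-ribose, held 36.0 to 39.6 CPM alone and 8.06, 10.4, 0.523 and 11.1 CPM in coculture. Its groups did not overlap, and it just missed the threshold (log2 fold change -2.31, SE 0.73, edgeR adjusted p = 0.0505). Without coculture 3 it was called lower, with a log2 fold change of -1.95 (edgeR adjusted p = 1.17e-06), and in that fit 1 of the 10 genes was higher and 4 were lower (10% and 40%, against 20.6% and 15.4% of all genes). Nadk, the NAD kinase and highest uncalled gene, averaged 233.6 ± 27.1 CPM alone and 280.7 ± 121.3 CPM in coculture (log2 fold change 0.27, adjusted p = 0.545).

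**Figure D4:**
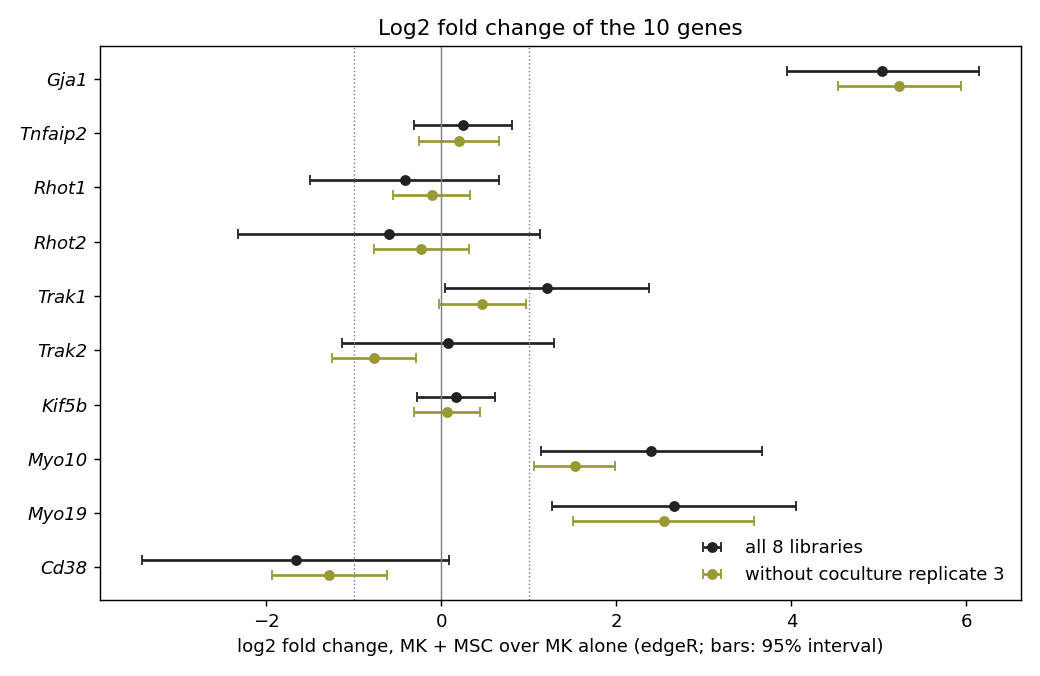
Log2 fold change of coculture over MKs alone for each of the 10 genes, with 95% intervals, from all 8 libraries and without coculture replicate 3, and with dotted lines at the fold cutoff of 2 in either direction. The intervals of Gja1, Myo10 and Myo19 lay above 0 in both fits, and the value of Trak2 changed sign.

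Over the 10 genes, the median log2 fold change was 0.20 and 7 values were above 0, against a median of 0.03 and 51.3% above 0 over all genes tested. Coculture 3 was the highest coculture for 5 of the genes, the lowest for 4 and between the others for 1. Without it, 3 of the genes were called higher and 1 lower, against 20.6% and 15.4% of all genes, and the median was 0.13.

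Mean levels were divided by exon length, taken over the exons of all annotated transcripts together, and ordered across genes. Such a length can exceed that of the transcripts present, so the places in the order depend on it. In MKs alone the order was Kif5b (26.2 ± 4.47 CPM per kb), Tnfaip2 (16.7 ± 3.0), Rhot1 (14.8 ± 3.68), Cd38 (10.2 ± 4.70), Trak2 (4.56 ± 0.404), Rhot2 (2.49 ± 0.327), Trak1 (1.36 ± 0.347), Myo10 (1.35 ± 0.205), Gja1 (0.516 ± 0.275) and Myo19 (0.118 ± 0.0651) CPM per kb (SD, n = 4). Neighbors in that order whose libraries overlapped were Tnfaip2 and Rhot1, Rhot1 and Cd38, and Trak1 and Myo10, and the other neighbors did not overlap. In coculture, Kif5b (29.4 ± 4.47 CPM per kb) and Tnfaip2 (19.8 ± 5.17) were again first, and Gja1 moved from the ninth place to the third (16.8 ± 5.34). Rhot1 followed at 11.1 ± 6.03 CPM per kb, then Myo10 at 7.14 ± 6.40 and Trak2 at 4.82 ± 4.28. Cd38 (3.23 ± 2.16 CPM per kb), Trak1 (3.15 ± 2.45), Rhot2 (1.65 ± 1.03) and Myo19 (0.766 ± 0.118) came last. The SD of Myo10 and Trak2 was nearly as large as the mean in coculture, with replicate 3 far above the others. In coculture the libraries of every gene overlapped with those of its neighbors in the order.

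**Figure D5:**
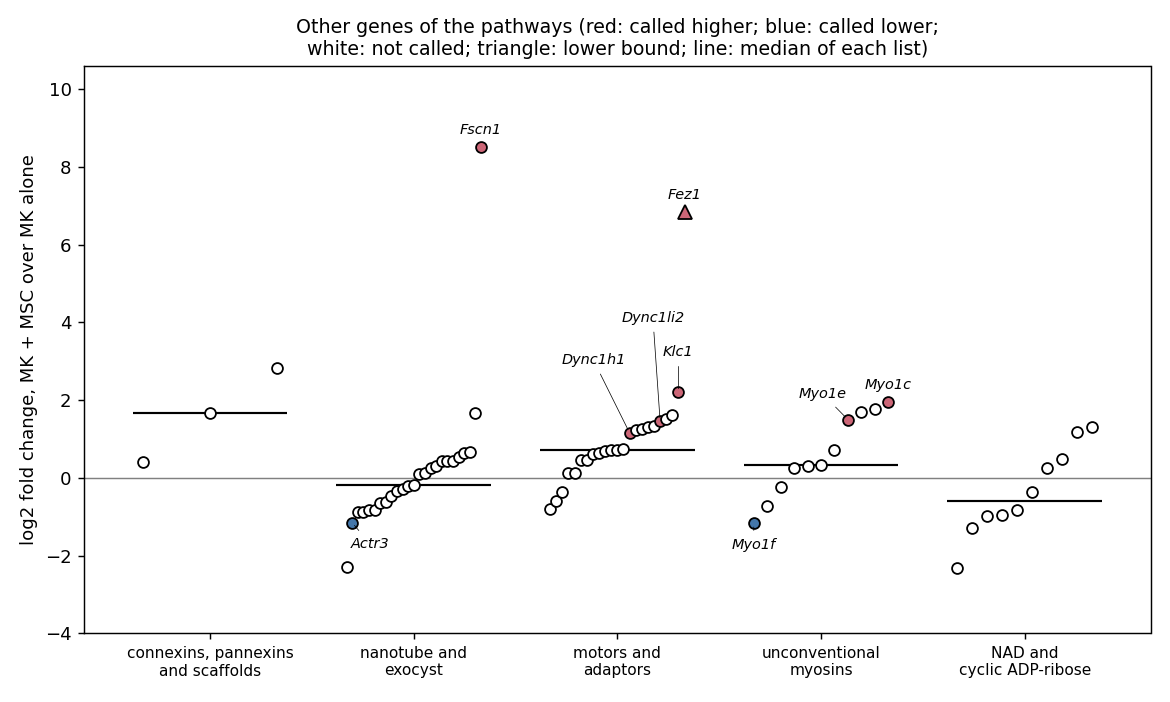
Log2 fold change of coculture over MKs alone for the 72 other tested genes in 5 lists, 1 point per gene, with called genes in red (higher) or blue (lower), the list median as a line and Fez1 drawn as a triangle at its lower bound. Fscn1 and Fez1 stand far above the rest.

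Over these 5 lists together, 72 genes were tested of 86 in the table and 116 listed. Of the 72, 7 were called higher (9.72%) and 2 lower (2.78%), below the shares of 13.2% and 7.31% among all genes tested. The median log2 fold change was 0.42. Without coculture 3, 16 of 76 were higher (21.1%) and 10 were lower (13.2%), close to the shares of 20.6% and 15.4% among all genes in that fit.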

How the data were processed

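The authors deposited whole-number counts per gene, without normalization, for 8 paired-end SMART-Seq HT libraries of C57BL/6 murine cells. According to the methods, reads were filtered with fastp and quantified with kallisto on the mm10 transcriptome. How counts were summed over transcripts or rounded, and whether strand was used, is not given in the sources used here. Groups and replicate numbers came from the labels. Counts were tested with edgeR 4.0.16 in R 4.3.3 (TMM, filterByExpr, robust quasi-likelihood F test, no covariate) over all genes. Cutoffs followed the study, with CPM in place of TPM. The batch term of the study's DESeq2 design is not named there, so none was used. SE is the log2 fold change divided by the square root of F. CPM are on TMM library sizes, where 3 counts correspond to 0.284 to 0.662 CPM, which covers counting error only.

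The 10 genes and all lists were chosen with earlier results of these data known, and the lists were not picked for how their genes moved. Named were all 10 genes, the called genes of each list (up to 6, by size of log2 fold change) with its highest uncalled gene, the highest marker of each cell type and the 5 genes most like Gja1. Others named (Tjp1, Gjc1, Bst1, Pdgfra, Col1a2, Postn, Selp, Gp1ba, Gp6, the other dynein and dynactin genes, Itga2b and the overlapping genes) were chosen after their values were seen. Positions and exon lengths came from GENCODE vM21 (GRCm38), and start regions from RefSeq. Exon lengths are the union over all annotated transcripts, not the lengths of the transcripts present. None is printed for Kif5b. Results of some genes of the lists are not reported here. Permutation tests used scipy 1.17.1. The edgeR and DESeq2 1.42.0 steps were tested on simulated counts. Alternatives were DESeq2, other scalings and filters, glmTreat, the replicate number as a block and each library left out, and for the share of paralogues, exon length.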

Additional observations from a re-analysis of the deposited data

Results flagged for a closer look

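In 26 groups of 4 libraries, the highest or lowest library was set against the nearest of the others with Dixon's criterion, and 4 groups had a library far from the rest, where chance gives 1.3. Of these 4, 3 were coculture replicate 3. Rhot2 had a log2(CPM + 1) of 0.607 in that library, against 3.32 to 3.48 in the other cocultures. Trak1 had 6.44 there, against 4.58 to 4.72 in the other cocultures. That library had 10735 genes with at least 1 count, against 13104 to 13193. In MKs cultured alone, Trak2 had a log2(CPM + 1) of 5.23 in replicate 2, against 4.98 to 5.01 in the others, a small distance that stood out because those 3 libraries were so close together.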

How the results depend on the processing

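Of the 10 genes, 3 were called higher, and 1 was under glmTreat, a test against the fold cutoff (6.98% of all genes), and 1 with the replicate number as a block (9.35% of all genes). None was called lower, and 1 (Cd38) was with DESeq2 and the replicate block (against 11.9% of all genes). Leaving out 1 library at a time gave 1 to 3 higher (1 without replicate 1 of MKs alone) and 0 to 1 lower (1 without coculture 3). Gja1 was the gene called in every setting. Of the companion genes, 7 were higher and 2 were lower. DESeq2 gave 12 and 5, DESeq2 with the block 13 and 6, glmTreat 3 and 0, and the edgeR block 2 higher. With at least 10 counts in every library, 4 were lower. Leaving out 1 library gave 5 to 16 higher and 1 to 10 lower, with 16 and 10 without coculture 3 and 1 lower without replicate 2 of MKs alone. Trak2, at 0.08, changed sign to -0.071 with library size only, -0.14 with at least 10 counts in every library, -0.30 with the block, -0.32 with DESeq2 and the block, and -0.77 without coculture 3 (-0.77 to 0.39 over all libraries left out in turn). The cause was not tested. That filter left out Rhot2, Myo19 and Cd38. Of the other values of single genes, 160 kept their direction and, where a test was made, their side of the threshold. Values from group means with a pseudocount had no test, and were counted when within the SE of the main value. The median of all genes moved from 0.03 to -0.14 with the block and -0.17 with DESeq2 and the block.

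Libraries with the same replicate number deviated together with r of 0.369, 0.0198, 0.15 and 0.028, so the numbers were not taken to pair the libraries. With the block, Myo10 had a log2 fold change of 2.04 (edgeR adjusted p = 0.0565) and Myo19 of 2.79 (edgeR adjusted p = 0.0699). Both libraries of replicate 1 and both of replicate 3 correlated best with their own number, and those of replicates 2 and 4 did not. Pairing is thus not excluded by these correlations. The low counts of Myo19 in MKs alone (2 to 13) limit its fold, which was 1.81 on the log2 scale from group means with a pseudocount of 1 CPM.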

Other observations

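Some genes beside Gjc1 were present in cocultures 1, 2 and 4 and at 0 counts in coculture 3. The connexin gene Gjb5 had no count in MKs alone and 6, 16, 0 and 4 counts in cocultures 1 to 4. Nmnat2, an NAD synthesis enzyme gene, had 0, 1, 3 and 3 counts in MKs alone and 35, 40, 0 and 3 in coculture. Myo3a showed the opposite, with 36 counts in coculture 3 and none in the other 7 libraries. These genes were left out by the filter and were chosen after their values were seen.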
